A study of Homo sapiens with 27 samples.

Results

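SMAD proteins carry the transforming growth factor beta (TGFB) signal from receptor to nucleus, and the cell limits that signal with inhibitors that the pathway itself induces. The genes described here are 10 members of that circuit: the receptor-activated SMADs SMAD2 and SMAD3, their common partner SMAD4, the inhibitory SMADs SMAD6 and SMAD7, the corepressors SKI and SKIL, the ubiquitin ligases SMURF1 and SMURF2, and the membrane adaptor PMEPA1. They were chosen by gene symbol, all 10 were found among 36536 symbols or unnamed gene identifiers, and all 10 were among the 15575 genes kept after a filter on low counts. Each had 1 row in the deposited table except SMURF1, whose 2 rows were summed.

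MCF10A, the cell line studied, is established from human mammary epithelium and does not form tumours, and every value here describes that line alone. The growth medium held epidermal growth factor (EGF) at 20 ng/ml. The cells were then kept 18 h in factor-free medium on collagen, and given ligands in fresh medium of that kind for 24 h. The 9 groups were T0 (by its name the start of treatment, with no treatment in the labels), PBS (vehicle), EGF, OSM (oncostatin M, a cytokine of the interleukin-6 family), TGFB, EGF+OSM, EGF+TGFB, OSM+TGFB and EGF+OSM+TGFB, each ligand at 10 ng/ml and each group with 3 libraries. The labels number the libraries of a group 1 to 3 but do not say whether they came from separate cultures, so p-values measure the spread between these libraries, which may be technical.

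Between 30.1 and 52.9 M counts were assigned per library (M, mega; median 39.5 M). The epithelial markers KRT5, KRT14, KRT17, TP63, ITGA6, CDH1 and EPCAM were present in all 27 libraries. Their medians ran from 10.9 CPM (counts per M counts) for EPCAM to 6030 CPM for KRT5. Marker values in this paragraph are per total count of the library, whereas CPM below is of the scaled library unless stated. Markers of leukocytes (PTPRC, CD3E), erythroid cells (HBB) and adipocytes (ADIPOQ) stayed at or below 0.199 CPM in each library. Of the endothelial markers, CDH5 was at 0 in 18 libraries and PECAM1 had a median of 0.812 CPM, and of the hormone receptors ESR1 had a median of 0.766 CPM and PGR was at 0 in 26 libraries. As in any bulk RNA measurement, fewer cells carrying a transcript and less of it per cell cannot be told apart.

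As background, TGFB binds a receptor kinase that phosphorylates SMAD2 and SMAD3. These join SMAD4, enter the nucleus and act on target genes with other DNA-binding factors. SMAD7 and SMAD6 compete for the receptor or for partner SMADs, SKI and SKIL recruit repressor complexes to SMADs on DNA, SMURF1 and SMURF2 mark SMADs and receptors for degradation, and PMEPA1 sequesters SMAD2 and SMAD3 away from the receptor. In mammary epithelium TGFB is known for arresting growth and for promoting mesenchymal traits.

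The promoters of 9 of the 10 genes were matched in the RefSeq table of start sites (GRCh38.p14), each as 300 bases from 250 before to 50 after the start that coincides with the canonical start of GENCODE v44. SKI was not matched. The palindrome GTCTAGAC, a SMAD binding element, was in the SMAD6 window and in 0.202% of the 35116 windows of that length in the table. The 4 windows below are shown because SMAD6 carries the palindrome, in capitals, and because SMAD7, SKIL and PMEPA1 rose together with TGFB. They cover chr15:66701986-66702285 (plus strand, SMAD6), chr18:48950916-48951215 (minus strand, SMAD7), chr3:170357465-170357764 (plus strand, SKIL) and chr20:57709966-57710265 (minus strand, PMEPA1), written 5′ to 3′ on the strand of the gene.
SMAD6: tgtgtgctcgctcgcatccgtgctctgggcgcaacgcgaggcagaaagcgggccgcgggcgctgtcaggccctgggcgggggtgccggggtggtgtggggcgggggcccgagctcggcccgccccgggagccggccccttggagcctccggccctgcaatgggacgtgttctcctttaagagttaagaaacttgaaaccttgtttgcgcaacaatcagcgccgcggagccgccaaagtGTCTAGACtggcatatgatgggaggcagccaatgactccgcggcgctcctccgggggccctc
SMAD7: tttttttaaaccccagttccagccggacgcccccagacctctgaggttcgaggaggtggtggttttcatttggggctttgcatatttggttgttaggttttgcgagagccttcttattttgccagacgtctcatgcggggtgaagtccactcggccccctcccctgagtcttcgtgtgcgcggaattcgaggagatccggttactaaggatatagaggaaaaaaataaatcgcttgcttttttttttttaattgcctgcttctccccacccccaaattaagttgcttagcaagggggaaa
SKIL: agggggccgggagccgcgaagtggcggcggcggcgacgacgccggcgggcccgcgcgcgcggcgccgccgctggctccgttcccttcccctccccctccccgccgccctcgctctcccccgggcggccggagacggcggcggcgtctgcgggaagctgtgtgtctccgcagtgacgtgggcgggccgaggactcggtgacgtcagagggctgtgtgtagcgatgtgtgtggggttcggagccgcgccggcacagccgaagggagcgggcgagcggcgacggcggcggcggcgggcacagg
PMEPA1: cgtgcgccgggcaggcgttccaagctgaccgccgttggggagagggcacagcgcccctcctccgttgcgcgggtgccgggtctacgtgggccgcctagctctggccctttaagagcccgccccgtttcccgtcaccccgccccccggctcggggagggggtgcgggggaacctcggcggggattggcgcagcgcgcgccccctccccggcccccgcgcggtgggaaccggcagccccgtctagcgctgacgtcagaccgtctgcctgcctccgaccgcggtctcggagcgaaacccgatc

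In SMAD6 the palindrome lay 12 bases before the start. Both strands were searched for 4 further motifs, and no instances that were found overlapped. CAGACA, found in 16.9% of all windows, was in the SMURF2 window. GGCGCC, found in 19.2%, was in the windows of SMAD2, SMAD3, SMAD4 and SKIL and is not capitalised above. TGANTCA (an AP-1 site, 7.71% of windows) and TTCNNNGAA (a STAT site, 7.66%) were in 0 of the 9 windows. A wider search of GRCh38, 1000 bases to either side of the canonical start, found GTCTAGAC beside SMAD6 and none of the other 8 genes, and beside 1.11% of 20046 protein-coding starts. A match is a string of letters and not a shown binding site, and no match says only that these letters were absent from that window.

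The comparison of TGFB with PBS asked how the circuit responded to its own ligand. PMEPA1, SKIL and SMAD7 rose at least 2-fold, SKI, SMURF1, SMURF2 and SMAD3 rose by smaller amounts, SMAD4 rose slightly, and SMAD2 and SMAD6 did not pass the test. Called means an adjusted p below 0.05 by the quasi-likelihood test of edgeR, with Benjamini-Hochberg adjustment over 15575 genes. By that rule 8 of the 10 genes were called, 8 higher and 0 lower, where 35.6% of all genes tested were called, 19.9% higher and 15.8% lower. The median log2 fold change of the 10 genes was 0.49, against -0.01 over all genes.

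PMEPA1 (ENSG00000124225, chromosome 20, 57648392 to 57711536, minus strand in GENCODE v44 on GRCh38), the membrane adaptor that withholds SMAD2 and SMAD3 from the receptor, changed most. Its level was 48.5, 44.2 and 46.5 CPM in the PBS libraries and 505, 477 and 449.6 CPM in the TGFB libraries. The 2 groups lay far apart, with a log2 fold change of 3.36 ± 0.11 (SE), or 10.3-fold (adjusted p 1.25e-16).

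SKIL (ENSG00000136603, chromosome 3, 170357342 to 170396835, plus strand), the corepressor also called SnoN, was at 40.6, 33.7 and 37.5 CPM with PBS and at 101, 106 and 104 CPM with TGFB. Every TGFB library was above every PBS library, and the rise was 2.78-fold (log2 fold change 1.47 ± 0.07 SE; adjusted p 2.66e-14). SMAD7 (ENSG00000101665, chromosome 18, 48919853 to 48950965, minus strand), the inhibitory SMAD that brings SMURF ligases to the TGFB receptor, was at 12.8, 14.7 and 15.7 CPM with PBS and at 28.1, 29.5 and 29.2 CPM with TGFB. It rose 2.01-fold (log2 fold change 1.01 ± 0.08 SE; adjusted p 5.65e-11). The other inhibitory SMAD, SMAD6, which acts mainly on signals of bone morphogenetic proteins, was at 5.98, 6.75 and 8.16 CPM with PBS and at 7.28, 7.32 and 8.27 CPM with TGFB. These ranges overlapped, and the log2 fold change of 0.13 ± 0.21 (SE; adjusted p 0.681) did not pass the test.

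SKI (ENSG00000157933, chromosome 1, 2227388 to 2310213, plus strand), the corepressor related to SKIL, went from 84.6, 81.7 and 88.9 CPM with PBS to 158, 142 and 137 CPM with TGFB, a rise of 1.71-fold (adjusted p 1.01e-09). SMURF1, summed over its 2 rows, went from 92.2, 92.7 and 88.8 to 133, 131 and 124 CPM, a rise of 1.42-fold (adjusted p 3.13e-06). Its smaller row, ENSG00000198742 (chromosome 7, 99027440 to 99144108, minus strand), held 7.55% of its counts. The larger row, ENSG00000284126, held 92.4% and had no position in that annotation. SMURF2 (ENSG00000108854, chromosome 17, 64542282 to 64662307, minus strand) went from 31.1, 28.1 and 26.4 to 41.3, 38.2 and 38.6 CPM, a rise of 1.38-fold (adjusted p 4.09e-07). In these 3 genes, already called by the test, the PBS and TGFB libraries did not overlap. The share of all genes without such overlap was not counted.

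Among the SMADs that transmit the signal, SMAD3 (ENSG00000166949, chromosome 15, 67063763 to 67195173, plus strand) was at 33.6, 32.2 and 32.2 CPM with PBS and at 45.8, 45.7 and 44.3 CPM with TGFB, a rise of 1.39-fold (adjusted p 6.43e-06). SMAD4 (ENSG00000141646, chromosome 18, 51028528 to 51085045, plus strand) was at 65.2, 59.99 and 56.7 CPM with PBS and at 72.4, 68.99 and 68.1 CPM with TGFB, 1.15-fold higher (adjusted p 0.0107). That call was lost without PBS replicate 3 (adjusted p 0.0784) and without TGFB replicate 1 (0.0567). SMAD2 (ENSG00000175387, chromosome 18, 47808957 to 47931146, minus strand) was at 80.2, 82.8 and 78.7 CPM with PBS and at 84.04, 89.01 and 83.9 CPM with TGFB, and its log2 fold change of 0.09 ± 0.05 (SE; adjusted p 0.163) did not pass.

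**Figure D1:**
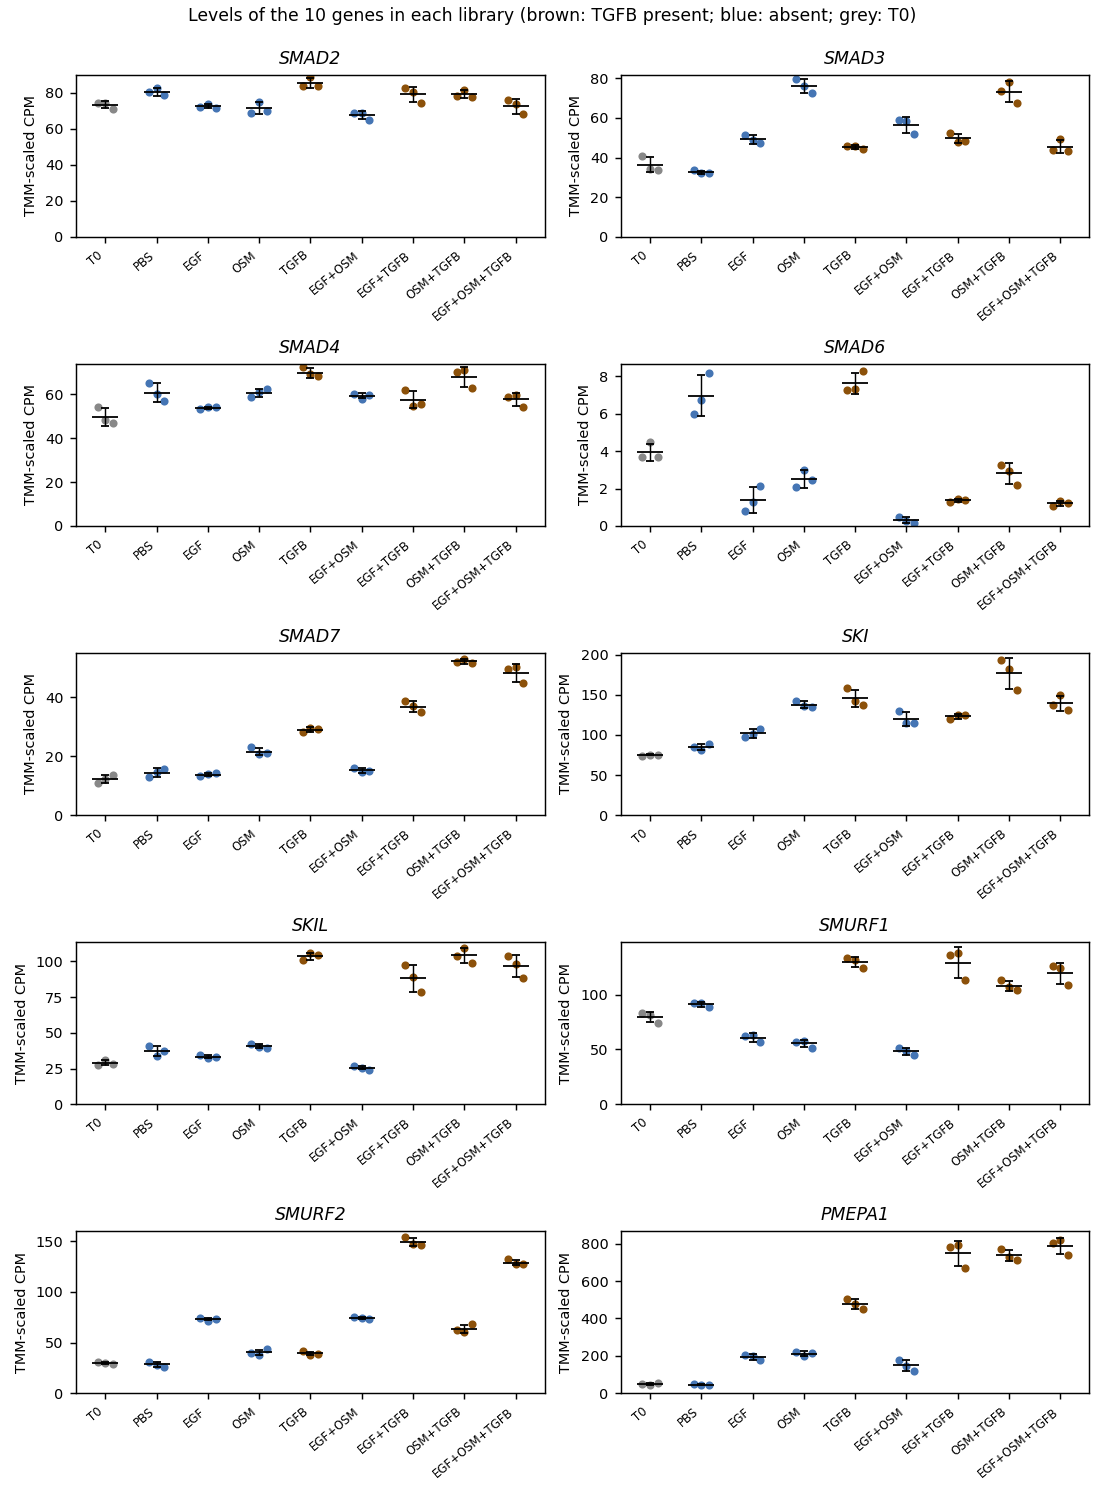
Level of each of the 10 genes in every library, in TMM-scaled CPM on a linear axis from 0, with the 9 groups along the horizontal axis, points for the 3 libraries of a group, and a bar and whiskers for their mean and SD. SKIL stands at 78.6 CPM or more in each library with TGFB and at 42.3 CPM or less in each library without it.

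EGF was next compared with PBS. SMURF2 and PMEPA1 rose more than 2-fold, SMAD3 and SKI rose less, and SMAD6, SMURF1, SMAD2 and SMAD4 fell. Of the 10 genes 8 were called, 4 higher and 4 lower, where 73.5% of all genes were called (34.9% higher and 38.6% lower), so the number called was close to the background. SMURF2 went from the PBS values above to 74.4, 71.7 and 73.7 CPM, 2.57-fold higher (log2 fold change 1.36 ± 0.06 SE; adjusted p 1.96e-16). PMEPA1 reached 204, 199 and 176 CPM, 4.16-fold above PBS (adjusted p 2.32e-14), and SMAD3 reached 51.3, 48.99 and 47.2 CPM, 1.51-fold above PBS (adjusted p 3.28e-08).

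SMAD6 (ENSG00000137834, chromosome 15, 66702236 to 66782849, plus strand) was at 0.779, 1.26 and 2.12 CPM with EGF. All 3 libraries were below all PBS libraries, and the level was 5.06-fold lower (log2 fold change -2.34 ± 0.24 SE; adjusted p 2.27e-09). SMURF1 was at 62.7, 63.3 and 56.5 CPM, with a log2 fold change against PBS of -0.58 ± 0.07 (SE; adjusted p 7.08e-08). SMAD7, at 13.2, 13.8 and 14.2 CPM with EGF, overlapped PBS (log2 fold change -0.07 ± 0.08 SE; adjusted p 0.442). SKIL, at 34.2, 32.6 and 33.3 CPM, also overlapped PBS and was not called (-0.16 ± 0.07, log2 and SE; adjusted p 0.0531). It passed without PBS replicate 2 (0.0114), with upper-quartile scaling (0.01) and in the fit with a replicate block (0.0282). The falls of SMAD2 and SMAD4 were small, with log2 fold changes of -0.15 ± 0.05 and -0.17 ± 0.06 (SE). In a fit of the EGF and PBS libraries alone neither passed (adjusted p 0.0516 and 0.0535), and the SMAD4 call was lost without PBS replicate 1 (0.115).

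OSM gave the highest level of SMAD3. Its libraries held 79.5, 76.01 and 72.5 CPM, 2.33-fold above PBS (log2 fold change 1.22 ± 0.07 SE; adjusted p 7.28e-14), and lay above every library of the other groups except those of OSM+TGFB. Of the 10 genes 8 were called, 5 higher and 3 lower, where 63.4% of all genes were called (33.5% higher and 29.8% lower). PMEPA1 rose 4.56-fold, to 223, 198 and 213 CPM (adjusted p 1.15e-14). SKI rose 1.62-fold (adjusted p 1.83e-09), SMAD7 1.49-fold (3.03e-07) and SMURF2 1.42-fold (2.88e-08). SMAD7 was at 22.9, 20.5 and 21.03 CPM with OSM, above all PBS and EGF libraries and below all TGFB libraries. SMAD2 was lower by a small amount (log2 fold change -0.18 ± 0.05 SE; adjusted p 0.00259). SMAD6 fell 2.76-fold, to 2.08, 2.995 and 2.46 CPM (adjusted p 3.44e-06), and SMURF1 fell 1.65-fold, to 56.6, 58.04 and 51.7 CPM (adjusted p 3.4e-09). SKIL missed the call (0.12 ± 0.07, log2 and SE; adjusted p 0.146), although it passed without PBS replicate 1 (0.0411).

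**Figure D2:**
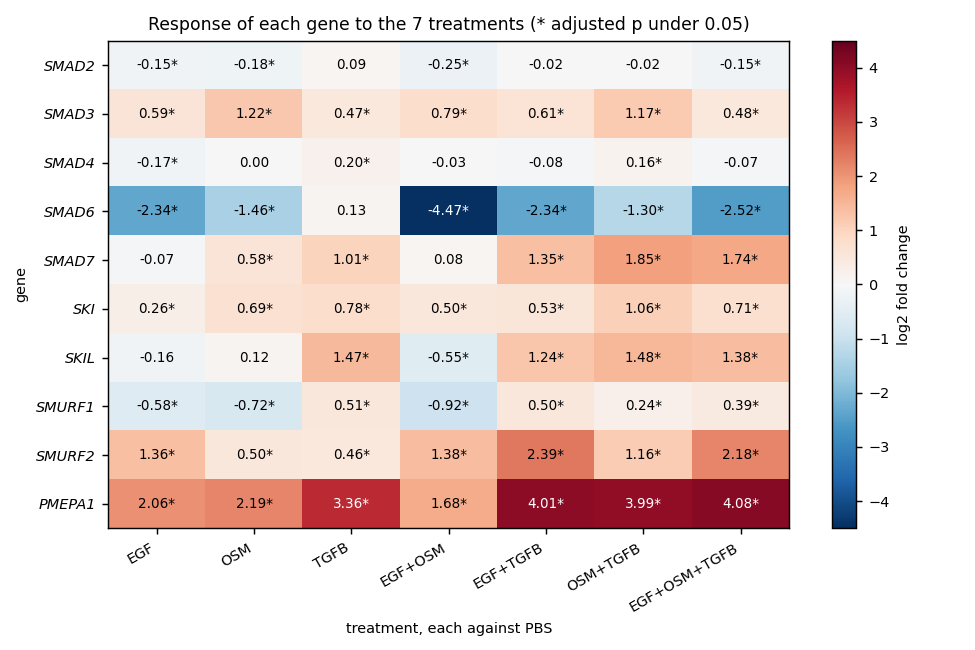
Log2 fold change of each gene (rows) for each of the 7 treatments against PBS (columns), as colour and number, with an asterisk for an adjusted p under 0.05. PMEPA1 is positive in all 7 columns, from 1.68 with EGF+OSM to 4.08 with all 3 ligands, and SMAD6 is at -4.47 with EGF+OSM.

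In EGF+OSM, 8 of the 10 genes were called against PBS, 4 higher and 4 lower, where 77.2% of all genes were called (37.6% higher and 39.6% lower). SMAD6 held 18, 12 and 7 counts, or 0.487, 0.279 and 0.177 CPM, the lowest of any group. At these counts counting error alone is large, and the fall of 22.2-fold (log2 fold change -4.47 ± 0.30 SE; adjusted p 3.67e-13) is less precise than the others. OSM lowered SMAD6 by 2.13 ± 0.33 (log2, SE; adjusted p 1.01e-05) when added to EGF. SKIL fell to 26.5, 25.6 and 24.3 CPM, below all PBS, EGF and OSM libraries (log2 fold change against PBS -0.55 ± 0.07 SE; adjusted p 2.52e-07). PMEPA1, at 179, 146 and 121 CPM, was lower than with EGF alone by 0.38 ± 0.10 on the log2 scale (SE; adjusted p 0.0043), a call lost when only those 2 groups were fitted (0.0826), and lower than with OSM alone by 0.51 ± 0.10 (9.87e-05). SMAD3 fell by 0.43 ± 0.07 (SE; adjusted p 6.40e-06) when EGF was added to OSM.

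Each ligand combination that held TGFB was then compared with PBS. With EGF+TGFB 8 genes were called, 7 higher and 1 lower (of all genes 73.7%, 36.2% higher and 37.5% lower), with OSM+TGFB 9, 8 higher and 1 lower (66%, 34.2% and 31.8%), and with the 3 ligands 9, 7 higher and 2 lower (74.4%, 37.7% and 36.7%). SMAD6 was lower in each. PMEPA1 was at 783, 791 and 670.1 CPM with EGF+TGFB, at 771, 726 and 713 CPM with OSM+TGFB and at 801, 818 and 739 CPM with all 3 ligands. These 3 groups overlapped, and lay 16.1-, 15.9- and 16.9-fold above PBS.

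SMAD7 reached 51.7, 52.9 and 51.5 CPM with OSM+TGFB, 3.62-fold above PBS (adjusted p 3.34e-17), and no library of another group was as high. It was at 38.5, 36.9 and 34.9 CPM with EGF+TGFB and at 49.4, 50.2 and 44.6 CPM with all 3 ligands. SMURF2 was highest with EGF+TGFB, at 154, 147 and 146 CPM, 5.23-fold above PBS (adjusted p 2.48e-21), and next with all 3 ligands, at 132, 127 and 127 CPM. OSM lowered SMURF2 by 0.21 ± 0.05 (log2, SE; adjusted p 0.00466) when added to EGF+TGFB. SKI was highest with OSM+TGFB, at 193, 182 and 155 CPM, a range that overlapped the TGFB libraries. SMURF1 with OSM+TGFB, at 113, 107 and 104 CPM, was called higher than PBS on the TMM scale (log2 fold change 0.24 ± 0.07 SE; adjusted p 0.00428), while CPM per total count without TMM gave -0.07, and the call was lost under upper-quartile scaling (adjusted p 0.0636). TMM factors averaged 1.1 in PBS and 0.879 in OSM+TGFB, so differences of this size depend on the scaling. For SMAD4 the same comparison gave 0.16 ± 0.06 (SE; adjusted p 0.0221) with TMM and -0.15 without it. That call was also lost in each of 7 other alternatives, among them those without PBS replicate 2, PBS replicate 3, OSM+TGFB replicate 1 and OSM+TGFB replicate 2. With the 3 ligands the fall of SMAD2 (log2 fold change -0.15 ± 0.05 SE) was lost without EGF+OSM+TGFB replicate 3 (adjusted p 0.0763).

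The effect of TGFB was next followed across 4 backgrounds: PBS, EGF, OSM and EGF+OSM. PMEPA1, SKIL, SMAD7, SMURF1 and SMURF2 rose with TGFB in all 4. Of the 10 genes, TGFB changed 7 on EGF, 7 higher and 0 lower (54.6% of all genes, 27% higher and 27.7% lower). On OSM it changed 8, 8 higher and 0 lower (51.6%, 26.1% and 25.6%), and on EGF+OSM 8, 7 higher and 1 lower (61.1%, 31.6% and 29.5%). For SKIL the fold was 2.78 on PBS, 2.64 on EGF, 2.57 on OSM and 3.80 on EGF+OSM. For SMAD7 it was 2.01, 2.68, 2.42 and 3.16. For SMURF1 it was 1.42, 2.12, 1.95 and 2.48. For SMURF2 it was 1.38, 2.04, 1.57 and 1.74. For PMEPA1 it was 10.3, 3.87, 3.48 and 5.29. Thus the estimated fold was smallest on PBS for SMAD7, SMURF1 and SMURF2 and largest on PBS for PMEPA1. By the same edgeR test, the log2 fold changes on OSM and on PBS did not differ past the threshold for SMAD7 and SMURF2. Those differences were 0.27 (adjusted p 0.0687) and 0.19 (0.0927).

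Whether the effect of TGFB differed between backgrounds was tested by the difference of the 2 log2 fold changes. With EGF+OSM in place of PBS it differed for 9 of the 10 genes, where 44.4% of all genes were called. Of these, 5 had a larger effect on EGF+OSM and 4 a smaller one (21.3% and 23.1% of all genes). On this log2 scale, which compares folds and not gains in CPM, the effect was larger on EGF+OSM for 5 genes. They were SMAD6 (by 1.82 ± 0.40 SE), SMURF1 (0.81 ± 0.10), SMAD7 (0.65 ± 0.11), SKIL (0.45 ± 0.10) and SMURF2 (0.33 ± 0.08). It was smaller for PMEPA1 (-0.96 ± 0.14), SMAD3 (-0.78 ± 0.10), SKI (-0.56 ± 0.10) and SMAD4 (-0.24 ± 0.09). The SMAD4 difference was lost without PBS replicate 3, TGFB replicate 1 or EGF+OSM+TGFB replicate 3.

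SMAD6 was called with TGFB in 1 of the 4 backgrounds. On EGF+OSM it went from 18, 12 and 7 counts to 44, 39 and 39 counts, or 1.08, 1.36 and 1.22 CPM, a rise of 3.87-fold (adjusted p 1.81e-05). The groups did not overlap. On PBS, EGF and OSM its log2 fold changes with TGFB were 0.13 ± 0.21, -0.01 ± 0.26 and 0.16 ± 0.24 (SE), none past the threshold.

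SMAD3 went the other way. TGFB lowered it by 0.31 ± 0.07 (log2, SE; adjusted p 0.000363) on EGF+OSM, from 58.8, 58.7 and 52.003 CPM to 43.998, 49.5 and 43.2 CPM. On EGF and on OSM its log2 fold changes with TGFB were 0.02 ± 0.07 and -0.05 ± 0.07 (SE), and neither passed. CPM without TMM gave SMAD3 -0.18 on EGF, -0.21 on OSM and -0.53 on EGF+OSM, so these sizes depend on the scaling. SKI rose with TGFB by 0.27 ± 0.07 on EGF and 0.36 ± 0.07 on OSM (log2, SE), or by 0.08 and 0.20 on CPM without TMM. On EGF+OSM it rose by 0.21 ± 0.07 (adjusted p 0.00778), but that call was lost without EGF+OSM+TGFB replicate 2 (0.0658), and CPM without TMM gave 0.00. For SMAD2 the 4 log2 fold changes with TGFB lay between 0.09 and 0.15, of which those on EGF and OSM were called. On CPM without TMM these 2 were -0.07 and 0.00. The call on EGF was lost without any 1 of its libraries apart from EGF replicate 2 and EGF+TGFB replicate 3, and the call on OSM without OSM replicate 1. SMAD4 was called on OSM (0.16 ± 0.06 SE), and lost without OSM replicate 1 or 2 or OSM+TGFB replicate 1 or 2. That call was also lost under upper-quartile scaling (adjusted p 0.0796) and in a fit of the compared groups only (0.0627). CPM without TMM gave 0.01 for it.

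**Figure D3:**
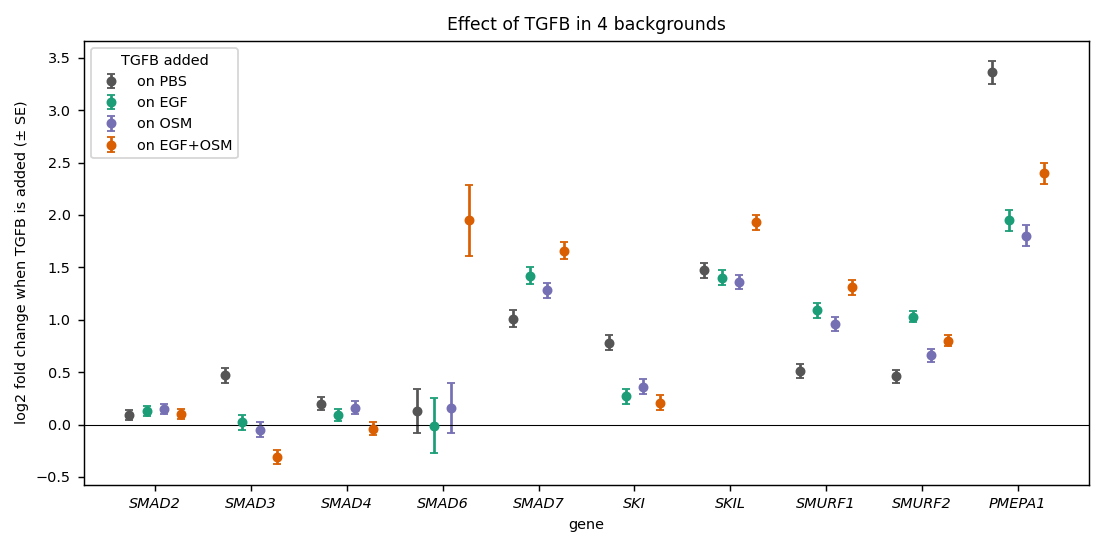
Log2 fold change of each gene when TGFB was added to PBS, EGF, OSM or EGF+OSM (colours), with whiskers for the SE. PMEPA1 stands at 3.36 on PBS and between 1.80 and 2.40 on the other backgrounds, and SMAD6 stands near 0 on all but EGF+OSM, where it is at 1.95.

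EGF and OSM were also compared as additions to the other ligands. SMURF2 answered EGF in every background: it rose 1.84-fold when EGF was added to OSM, 3.79-fold on TGFB and 2.03-fold on OSM+TGFB (adjusted p 3.3e-12, 1.57e-18 and 5.22e-13). SMAD6 fell with EGF in each, 8.04-, 5.55- and 2.33-fold. SMAD3 fell 1.61-fold when EGF was added to OSM+TGFB (adjusted p 1.11e-08). EGF changed 8 genes on OSM, 1 higher and 7 lower (61.7% of all genes, 29.9% higher and 31.8% lower), 8 on TGFB, 3 higher and 5 lower (69.4%, 33.9% and 35.5%), and 6 on OSM+TGFB, 1 higher and 5 lower (52.2%, 26.3% and 25.9%). Several of these were small: SMAD2 on TGFB and on OSM+TGFB, and SKI and SMURF1 on OSM, lay between -0.20 and -0.11 (log2) and each lost its call without single libraries. SKIL on TGFB (-0.23 ± 0.07 SE) lost its call without EGF+TGFB replicate 3 (adjusted p 0.174).

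OSM raised SMAD7 1.80-fold when added to TGFB (adjusted p 2.03e-10) and 1.31-fold when added to EGF+TGFB (0.000172). On EGF its log2 fold change for SMAD7 was 0.15 ± 0.08 (SE; adjusted p 0.151). OSM raised PMEPA1 1.54-fold on TGFB (adjusted p 7.4e-06), as EGF did 1.57-fold (2.82e-06), whereas neither passed when added to TGFB with the other ligand already present. OSM changed 6 genes on EGF, 2 higher and 4 lower (34.9% of all genes, 17.8% higher and 17.1% lower), 7 on TGFB, 5 higher and 2 lower (56.6%, 30.1% and 26.4%), and 2 on EGF+TGFB, 1 higher and 1 lower (26.4%, 13.6% and 12.8%). That last count was 5 with a replicate block and 4 without EGF+TGFB replicate 3. On EGF the rise of SMAD3 (0.20 ± 0.07, log2 and SE) lost its call without EGF replicate 2 or 3 or EGF+OSM replicate 1 or 2, and that of SKI (0.24 ± 0.07) without EGF+OSM replicate 1. The fall of SMURF1 on TGFB (-0.26 ± 0.07) lost its call when only its larger row was used (adjusted p 0.082).

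Additivity was then examined. Each pair's log2 fold change was set against its 2 single-ligand log2 fold changes added together, and what is left over is called the departure. Departures hold for the log2 scale, on which folds multiply, and a sum of changes in CPM was not tested. All departures share the PBS libraries. PMEPA1 fell short of the sum in every pair, with departures of -2.57 ± 0.14 (EGF+OSM), -1.41 ± 0.14 (EGF+TGFB) and -1.56 ± 0.14 (OSM+TGFB; log2, SE). In the same order SMAD3 departed by -1.02 ± 0.10, -0.46 ± 0.10 and -0.53 ± 0.10, and SKI by -0.46 ± 0.10, -0.50 ± 0.10 and -0.41 ± 0.10. SMURF1 departed upward in each pair, by 0.38 ± 0.10, 0.58 ± 0.10 and 0.46 ± 0.10. SMAD7 and SMURF2 departed downward for EGF+OSM (-0.43 ± 0.11 and -0.48 ± 0.08) and upward for EGF+TGFB (0.41 ± 0.11 and 0.56 ± 0.08). SKIL departed for EGF+OSM only (-0.51 ± 0.10), and whether that differed from the other pairs was not tested. In all, 7 of the 10 genes departed for EGF+OSM, 1 upward and 6 downward (38.7% of all genes, 15.7% and 23%), 6 for EGF+TGFB, 3 and 3 (29.8%, 13.3% and 16.5%), and 4 for OSM+TGFB, 1 and 3 (23.3%, 9.61% and 13.7%). SMAD2, SMAD4 and SMAD6 were called in none of the pairs, with SEs of 0.07, 0.09 and 0.32 to 0.40, although SMAD6 was called for EGF+OSM without EGF replicate 1 (adjusted p 0.0421). SMAD7 for OSM+TGFB (0.27 ± 0.10, adjusted p 0.0687) was called without PBS replicate 1 (0.0182) or OSM replicate 1 (0.0426) and with DESeq2 (0.0477), and SMURF2 (0.19 ± 0.08) without PBS replicate 3 or OSM replicate 3. The interaction of all 3 ligands was called for 4 genes, 3 upward and 1 downward (3.9% of all genes, 2.38% and 1.52%). These were PMEPA1 (2.01 ± 0.20), SKIL (0.64 ± 0.14), SMAD6 (1.93 ± 0.54) and SMURF2 (-0.42 ± 0.11). The SMAD6 and SMURF2 calls were lost on leaving out many of the single libraries, which left 2 to 4 genes called.

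**Figure D4:**
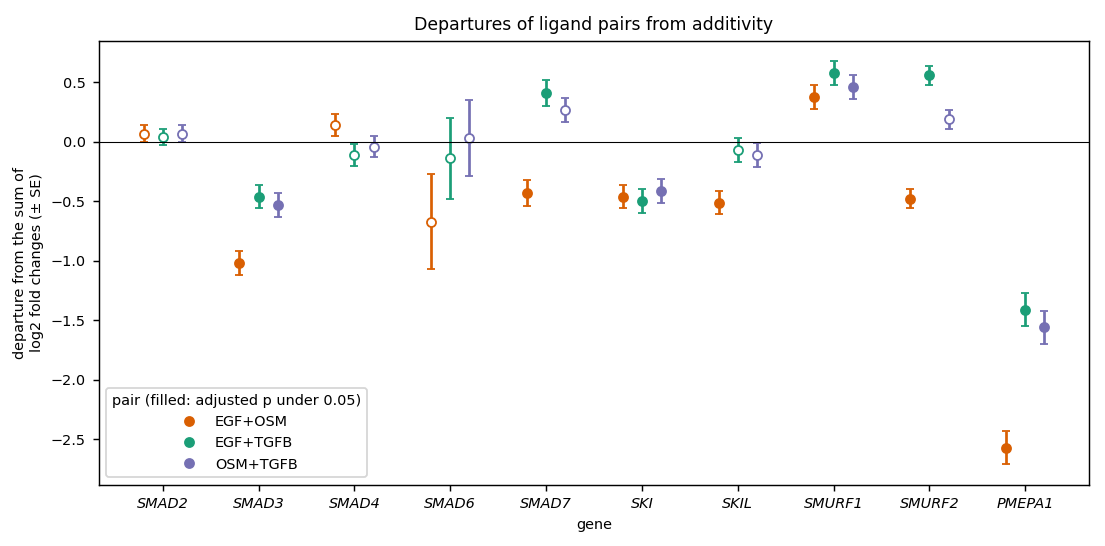
Departure of each ligand pair from the sum of its single-ligand log2 fold changes, per gene, with whiskers for the SE and filled points for an adjusted p under 0.05. PMEPA1 lies between -2.57 and -1.41, and SMURF1 lies between 0.38 and 0.58.

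PBS was compared with T0 to see how the circuit moved over 24 h without a ligand. Of the 10 genes 7 were called, 7 higher and 0 lower in PBS, where 35.1% of all genes were called (16.2% higher and 18.9% lower), and none changed by 2-fold. SMAD6 rose 1.76-fold from 3.68, 4.47 and 3.68 CPM in T0 (adjusted p 0.00442), SKIL 1.29-fold from 27.5, 31.04 and 28.4 CPM (0.000356) and SMAD4 1.22-fold from 54.2, 48.03 and 46.7 CPM (0.000627). The calls of SMAD2, SMAD7, SKI and SMURF1 each rested on single libraries: 5 genes stayed called without T0 replicate 1 and 4 without any other 1 of the 6 libraries. PMEPA1, SMAD3 and SMURF2 did not pass (adjusted p 0.362, 0.0904 and 0.316), although SMAD3 was called lower in PBS in the fit with a replicate block (0.0318).

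Across the 9 groups the genes differed in how widely they ranged. Group means of SMAD6 spanned 24.2-fold and those of PMEPA1 16.9-fold, followed by SMURF2 (5.22-fold), SMAD7 (4.22-fold) and SKIL (4.09-fold). SMAD2 and SMAD4 spanned 1.27- and 1.41-fold. In order of mean, PMEPA1 formed 4 tiers whose neighbours did not overlap: PBS and T0, then EGF+OSM, EGF and OSM, then TGFB, then the 3 TGFB combinations. SKIL split into libraries with TGFB, from 78.6 to 109.4 CPM, and without it, from 24.3 to 42.3 CPM. SMAD7 likewise split, from 28.1 to 52.9 CPM with TGFB and from 10.9 to 22.9 CPM without. On the TMM scale SMURF1 also split, from 104 to 138 CPM with TGFB and from 44.7 to 92.7 CPM without. That split depended on the scaling. On CPM per total count SMURF1 was at 100.4, 94.1 and 90.6 with OSM+TGFB and at 103.1, 99.8 and 97.1 with PBS, which overlap. SMURF2 split instead by EGF, from 71.7 to 154 CPM with it and from 26.4 to 68.04 CPM without. In SMAD6 the libraries with EGF (0.177 to 2.12 CPM) overlapped those without it (2.08 to 8.27 CPM) only at the edge. In SMAD3 the means with TGFB, all 3 ligands, EGF, EGF+TGFB and EGF+OSM followed each other with overlap, and OSM+TGFB and OSM stood above them.

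Levels can be set between genes only per length. Divided by the length of the canonical GENCODE v44 transcript, which may not be the one these cells use, PBS cells held 14 CPM per kb of SKI, 9.37 of PMEPA1, 6.91 of SMAD4, 5.21 of SKIL, 5.05 of SMAD3, 4.57 of SMURF2, 4.3 of SMAD7 and 1.82 of SMAD6. With all 3 ligands PMEPA1 was at 159 CPM per kb and SMAD6 at 0.318. SMAD2, whose canonical transcript is 34626 bases long, and SMURF1, whose larger row has no length in that annotation, are left out of this order. Of the 2 rows of SMURF1, ENSG00000284126, which was not in GENCODE v44, held 92.4% of its counts and ENSG00000198742 held 7.55%. On CPM per total count the first row went from 92.2 ± 7.33 in PBS to 120 ± 3.77 with TGFB (SD, n = 3) and the second from 7.82 ± 4.57 to 15.9 ± 2.65. How the authors' counting divided reads between them is uncertain.

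Genes whose pattern over the 9 group means of log2 CPM was most like that of a gene changed by TGFB were sought among 10279 genes at 10 CPM or more in some group. For PMEPA1 these were P4HA3 (Pearson's r = 0.991), PGM2L1 (0.991) and CTNNB1 (0.988). For SMAD7 they were KLHL5 (0.992), ANO6 (0.989) and CHPF2 (0.988), and for SKIL SGPL1 (0.99), TMEM50A (0.983) and MAP4 (0.982). SKI was most like EHMT1 (0.991), RNF216 (0.99) and EPHB4 (0.978), and SMURF1 most like UBTD1 (0.987), ELF4 (0.983) and ZNF827 (0.98). SMURF2 was most like ASCC2 (0.994), PPP3CC (0.991) and EHD1 (0.991), SMAD3 most like ANKH (0.968), IFNGR2 (0.961) and METTL9 (0.951), and SMAD4 most like AKIRIN2 (0.971), ARIH1 (0.958) and MORC2 (0.941). The points share the same libraries and the highest of many values was taken, so these describe only the pattern over 9 points. When each replicate number was left out in turn, 54 of 72 of these values stayed among the 3 highest. Among the 10 genes, SMAD7 was most like SKIL (0.929) and PMEPA1 (0.911).

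Other genes of the pathway were counted in lists. Of 8 TGFB ligands and receptors tested (of 9 listed), TGFB against PBS raised 4 and lowered 1, beside the 19.9% of all genes called higher and 15.8% called lower in that comparison, which also stand behind the counts of the lists that follow. TGFBR1, a subunit of the receptor kinase, went from 40.2 ± 2.07 to 88.5 ± 3.597 CPM (SD, n = 3). TGFB2, a ligand, went from 0.802 ± 0.328 to 7.52 ± 0.4503, and TGFBR3, a coreceptor, fell from 58.8 ± 0.996 to 27.8 ± 1.99 CPM. With EGF alone TGFBR1, TGFB2 and TGFBR3 were at 54.7, 1.65 and 12.5 CPM, and with OSM alone at 119, 1.13 and 7.2 CPM. Of 3 SMADs of the bone morphogenetic protein branch 2 fell, SMAD9 from 16.4 ± 0.828 to 9.65 ± 0.828 CPM and SMAD1 from 26.5 ± 1.86 to 22.6 ± 1.76 CPM, and SMAD5 did not pass. Of 12 other ubiquitin ligases and deubiquitinases of the pathway 1 rose, ITCH (87.6 ± 5.12 to 107 ± 1.29 CPM), and 3 fell, among them UCHL5 and NEDD4L (log2 fold changes -0.35 ± 0.10 and -0.22 ± 0.07 SE). That number called was near the 35.6% called over all genes. Of 12 other inhibitors and corepressors 4 rose and 1 fell. Those that changed most were LDLRAD4, a membrane protein related to PMEPA1 (1.53 ± 0.0502 to 5.54 ± 0.7404 CPM), the decoy receptor BAMBI (10.1 ± 0.138 to 20.97 ± 1.05 CPM) and the corepressor TGIF1 (33.6 ± 2.53 to 64.02 ± 5.57 CPM).

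Of 11 DNA-binding partners and coactivators tested (of 12), 7 rose and 1 fell. RUNX2, JUN and RUNX1 changed most, by 1.40 ± 0.19, 1.21 ± 0.13 and 1.16 ± 0.07 (log2, SE). Of 15 SMAD target genes tested (of 16), 12 rose and 0 fell, with a median log2 fold change of 1.99 against -0.01 over all genes. These rises were not particular to TGFB. EGF against PBS raised 10 of the 15 and lowered 4 (34.9% and 38.6% of all genes). OSM against PBS raised 11 and lowered 2 (33.5% and 29.8%). FN1, the matrix protein fibronectin, went from 132 ± 18.3 to 1964 ± 79 CPM, CCN2 from 1.94 ± 0.363 to 28.2 ± 0.964 CPM and the collagen gene COL4A1 from 16.5 ± 1.56 to 159 ± 9.43 CPM (SD, n = 3). When TGFB was added to EGF+OSM, 15 of the 15 rose, with a median log2 fold change of 1.94 against 0.02 over all genes, of which 31.6% were called higher.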

How the data were processed

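Messenger RNA (poly(A) RNA) of MCF10A cells was sequenced in 27 libraries, 3 for each of 9 groups, grouped by their titles. The authors deposited estimated counts per Ensembl gene as whole numbers (40487 rows), unnormalized. Per the submitters' processing notes, Trim Galore 0.4.3, cutadapt 1.10, FastQC 0.11.5, kallisto 0.46.2 and R 3.5.0 were used with GRCh38.p5 and hg38; their roles and order are not given in the sources used here. The libraries came from a stranded kit, per the labels' protocols. Rounding to whole numbers changed nothing.

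Rows sharing a symbol were summed, and 7165 rows without a symbol, holding 0.324% of the counts, kept their identifiers. Genes were filtered with filterByExpr by group and scaled by TMM (trimmed mean of M-values; factors 0.867 to 1.12). Testing was done in R 4.3.3 with edgeR 4.0.16 as a robust quasi-likelihood fit with 1 mean per group over all libraries (18 residual degrees of freedom), glmQLFTest per contrast and Benjamini-Hochberg adjustment over all 15575 genes. The threshold was an adjusted p of 0.05. Fold changes used a prior count of 0.125. Levels are TMM-scaled CPM unless stated. Replicates differed by more than sampling noise (chi-square per degree of freedom 6.84 to 33.9), so the test used the spread between libraries. Each library was treated as its own replicate. The chi-square values cannot show that the libraries are independent, because technical spread would raise them too. The test was checked on simulated data in which few genes changed, as many up as down, in the TGFB group only. That check cannot show how the scaling behaves where most genes change. Alternatives were upper-quartile scaling, DESeq2 1.42.0, no low-count filter, rows as deposited, a replicate block, a fit of the compared groups only, CPM without TMM, and each library left out.

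The members, the further gene lists and the rules for naming genes were chosen with earlier results of these data known. All 10 members are described. Of each list, the 3 called genes that changed most with TGFB are named, and for members changed by TGFB the 3 genes most like them over the group means. Counts of the 10 genes per library ran from 7 to 39053, so precision is set by replicate spread except in SMAD6, where intervals from counting alone would be wide.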

Additional observations from a re-analysis of the deposited data

Results flagged for a closer look

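The effect of a ligand differed between backgrounds, by a test of the difference itself (edgeR's quasi-likelihood test, Benjamini-Hochberg adjustment over all genes), in 30 cases. Each of the 10 genes was tested in every contrast below, and SMAD2 was called in none. Of all genes, 38.7% departed with EGF+OSM, 29.8% with EGF+TGFB and 23.3% with OSM+TGFB. The effect of TGFB on EGF+OSM differed from that on PBS in 44.4%. That contrast is the sum of the EGF+TGFB departure, the OSM+TGFB departure and the 3-way interaction. The cases are therefore not separate. Values are differences of log2 fold changes, with adjusted p in parentheses, and no explanation was weighed.

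For the pair EGF+OSM against the sum of EGF and OSM, PMEPA1 differed by -2.57 (2.19e-12), SMAD3 by -1.02 (6.02e-09), SKIL by -0.51 (0.000303), SMURF2 by -0.48 (2.36e-05), SKI by -0.46 (0.000439), SMAD7 by -0.43 (0.00252) and SMURF1 by 0.38 (0.00456).

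For EGF+TGFB the difference was -1.41 in PMEPA1 (1.62e-07), -0.50 in SKI (0.000287), -0.46 in SMAD3 (0.000972), 0.41 in SMAD7 (0.00447), 0.56 in SMURF2 (9.23e-06) and 0.58 in SMURF1 (0.000117). For OSM+TGFB it was -1.56 in PMEPA1 (5.33e-08), -0.53 in SMAD3 (0.000318), -0.41 in SKI (0.00242) and 0.46 in SMURF1 (0.0018).

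TGFB acted differently on EGF+OSM than on PBS in SMAD6 (1.82; 0.000638), SMURF1 (0.81; 6.89e-07), SMAD7 (0.65; 1.97e-05), SKIL (0.45; 0.000766), SMURF2 (0.33; 0.00129), SMAD4 (-0.24; 0.0256), SKI (-0.56; 3.49e-05), SMAD3 (-0.78; 6.52e-07) and PMEPA1 (-0.96; 7.03e-06).

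The 3-way interaction, what remains of the 3-ligand effect after single-ligand effects and pair departures, was called in 4 of the 10 genes and in 3.9% of all genes. It was 2.01 in PMEPA1 (3.08e-06), 1.93 in SMAD6 (0.0424), 0.64 in SKIL (0.0105) and -0.42 in SMURF2 (0.0321). The SMAD6 value rests on a group with 7 to 18 counts per library, and its call was lost in 20 of 30 alternative fits. The SMURF2 call was lost in 11 of 30.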

How the results depend on the processing

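Across 3060 recomputed log2 fold changes of the 10 genes, 2907 stayed on the same side of the threshold, 112 lost a call, 41 gained one and 0 called values turned direction. CPM per total count without TMM, a description with no test, moved some of the called rises. It put SMAD4 and SMURF1 with OSM+TGFB and SMAD2 with TGFB on EGF below 0. It brought SMAD2 with TGFB on OSM and SKI with TGFB on EGF+OSM to 0.00. The number of the 10 genes called stayed within 1.5 times its value under upper-quartile scaling, DESeq2, no low-count filter, rows as deposited and a fit of the compared groups only. With a replicate block, OSM added to EGF+TGFB gave 5 called genes in place of 2. Leaving out single libraries gave 4 to 5 for PBS against T0 (7 with all), 2 to 4 for OSM added to EGF+TGFB and 2 to 4 for the 3-way interaction (4 with all); the cause was not tested. The labels do not say that a replicate number marks a shared batch or donor. Over 108 same-numbered pairs, deviations from the group means correlated from -0.097 to 0.584 (median 0.246), and all 27 libraries correlated best with their own number, a hint from the data and not the design. Over all genes, the median response under upper-quartile scaling was -0.137 (log2) with EGF, -0.133 with EGF+OSM and -0.136 with EGF+TGFB, against -0.072, -0.049 and -0.042 under TMM. Depth limits SMAD6 most, with 7 to 18 counts per library in EGF+OSM.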
